A study of Homo sapiens with 6 samples.

Results

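Interferon-stimulated genes with antiviral roles were followed in MDA-MB-231, a triple-negative human breast cancer cell line, and in 2 cell populations isolated from it. The members were the 51 genes of a list taken by symbol, which was drawn up with earlier results of these data known: the IFIT, IFITM, OAS, MX and GBP families, sensors of viral RNA, the ISG15 conjugation enzymes, TRIM and PML body proteins, and the factors that switch them on. Of these 51 genes, 50 had at least 1 probe set annotated to them alone, among 11963 genes with a named probe set. STAT2 was not analysed here. The 50 genes were covered by 79 probe sets, and 46 of them were bright enough to be tested, out of 7791 genes tested in all.

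The groups were S1a and S1b, which the labels call isolated seeder cell populations, and the parental MDA-MB-231 line. Each had 2 arrays, titled biological replicates 1 and 2, 6 in all. The cells were grown subconfluent in DMEM with serum, and the labels name no added interferon, virus or drug for any group. The values are taken as those of cells without an added stimulus, which the labels do not state outright. Total RNA was labelled with biotin and hybridised to Affymetrix expression arrays. The labels do not say how the isolates were obtained or how many founding cells each had. No population isolated in the same way without seeding was included, so isolation and seeding cannot be told apart. Nothing in the labels says that the replicates were separate cultures, so p-values measure only the spread between these arrays.

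Type I interferons bind the IFNAR1 and IFNAR2 receptor and act through the kinases JAK1 and TYK2 on ISGF3, a complex of STAT proteins with IRF9. ISGF3 binds the interferon-stimulated response element (ISRE) in the promoters of many genes, whose products sense viral RNA, block its translation, cut it, or hold virus particles at membranes. Interferon gamma uses another receptor and the gamma-activated site (GAS). Many tumour lines, MDA-MB-231 among them, are known to keep part of this programme on without added interferon.

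The promoter windows of these genes show the element itself. RefSeq sequences of 250 bases before to 50 after a gene's start (assembly GRCh38.p14) were found for 40 of the 51 genes. The ISRE core was searched as GAAA, any 2 bases and GAAA again, and the GAS core as TTCNNNGAA, each on both strands, and overlapping matches of a motif were counted. The ISRE core occurred in 26 of the 40 genes (65%), compared with 4.38% of all 27305 genes with a window and 4.18% of the tested ones. The GAS core occurred in 11 of the 40 (27.5%), compared with 9.38% of all genes with a window. A match describes letters in a window and is not a measured binding site. The stretches below were chosen to set genes that fell in the isolates beside genes that were not called lower. They are 60 bases long and are written 5′ to 3′ on the gene's strand. Letters of ISRE cores that lie wholly within a stretch are in capitals. A core on the opposite strand reads TTTC, any 2 bases and TTTC again.

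The first 5 belong to genes that were lower in both isolates. BST2 (chr19:17405723-17405782, minus strand) and ISG15 (chr1:1013362-1013421, plus strand) carry overlapping cores. IFI27 (chr14:94110609-94110668), IFIT1 (chr10:89392488-89392547) and IFIT3 (chr10:89327833-89327892), all on the plus strand, carry a pair of separate cores.
BST2: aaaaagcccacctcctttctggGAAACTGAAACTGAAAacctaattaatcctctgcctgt
ISG15: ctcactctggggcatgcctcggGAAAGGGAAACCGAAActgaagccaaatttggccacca
IFI27: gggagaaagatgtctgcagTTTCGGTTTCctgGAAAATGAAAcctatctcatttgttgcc
IFIT1: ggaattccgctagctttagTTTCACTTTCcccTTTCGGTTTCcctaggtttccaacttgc
IFIT3: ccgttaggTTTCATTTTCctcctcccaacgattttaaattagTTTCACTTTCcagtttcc

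The next 4 belong to genes that were not called lower in the mean of both isolates. IFIT5 (chr10:89414508-89414567, plus strand), IFITM3 (chr11:320870-320929, minus strand) and LGALS3BP (chr17:78979947-78980006, minus strand) did not pass the test, and all carry the core. SP100 (chr2:230416141-230416200, plus strand) rose, and its stretch, the 60 bases before the start, holds no core.
IFIT5: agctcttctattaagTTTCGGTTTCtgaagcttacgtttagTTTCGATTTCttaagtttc
IFITM3: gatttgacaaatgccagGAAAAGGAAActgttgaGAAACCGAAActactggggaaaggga
LGALS3BP: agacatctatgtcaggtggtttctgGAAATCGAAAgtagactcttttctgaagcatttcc
SP100: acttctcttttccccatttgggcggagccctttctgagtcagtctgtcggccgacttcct

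The larger share of this antiviral programme was reduced in S1a and S1b. Of the 46 genes tested, 28 were lower (60.9%), 2 were higher (4.35%) and 16 did not pass in the mean of S1a and S1b against parental cells (limma, Benjamini-Hochberg adjusted p under 0.05 over all genes tested). Against parental cells many other genes changed too: 46.2% of all tested genes passed, 23.5% lower and 22.7% higher. The median log2 difference, mean of isolates minus parental, was -0.67 over the 46 genes and -0.03 over all genes tested. Falls of at least 2-fold were found for 18 of the 46 genes, against 5.97% of all genes tested, and falls of at least 4-fold for 10, against 1.45%. RSAD2 and IFIH1, both among these 10, and OAS2, which did not pass, had isolate means under the limit of 44 signal units and were tested only because their parental signals lifted the mean over all arrays. Over the 43 genes with both group means at the limit or above, a choice made after seeing the data, 26 were lower (60.5%) and 2 higher, with 8 lower at least 4-fold, against 23.1% lower and 0.756% lower at least 4-fold of 7403 such genes in all. Housekeeping genes moved in the same direction: 7 of 10 were lower in the isolates, with a median log2 difference of -0.51, which was -0.50 with cyclic loess, -0.20 with quantile normalization and -0.32, with 1 gene higher, when each array was centred on its median. Their part in the result was not tested. In bulk RNA, fewer cells that express a gene and less RNA per cell cannot be told apart.

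The falls were seen array by array. All 4 isolate arrays lay below both parental arrays in 28 of the 46 genes and above both in 2, where 29.7% and 27% of all genes tested did so. Of the 28 genes called lower, 26 had no overlap between the groups, and the exceptions were IFITM1 and TRIM21. The median over the 46 genes, as a log2 difference from the parental mean, was -0.57 and -0.77 on the S1a arrays, -0.82 and -0.69 on the S1b arrays, and 0.02 and -0.02 on the parental arrays. No single isolate array carried the shift.

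**Figure D1:**
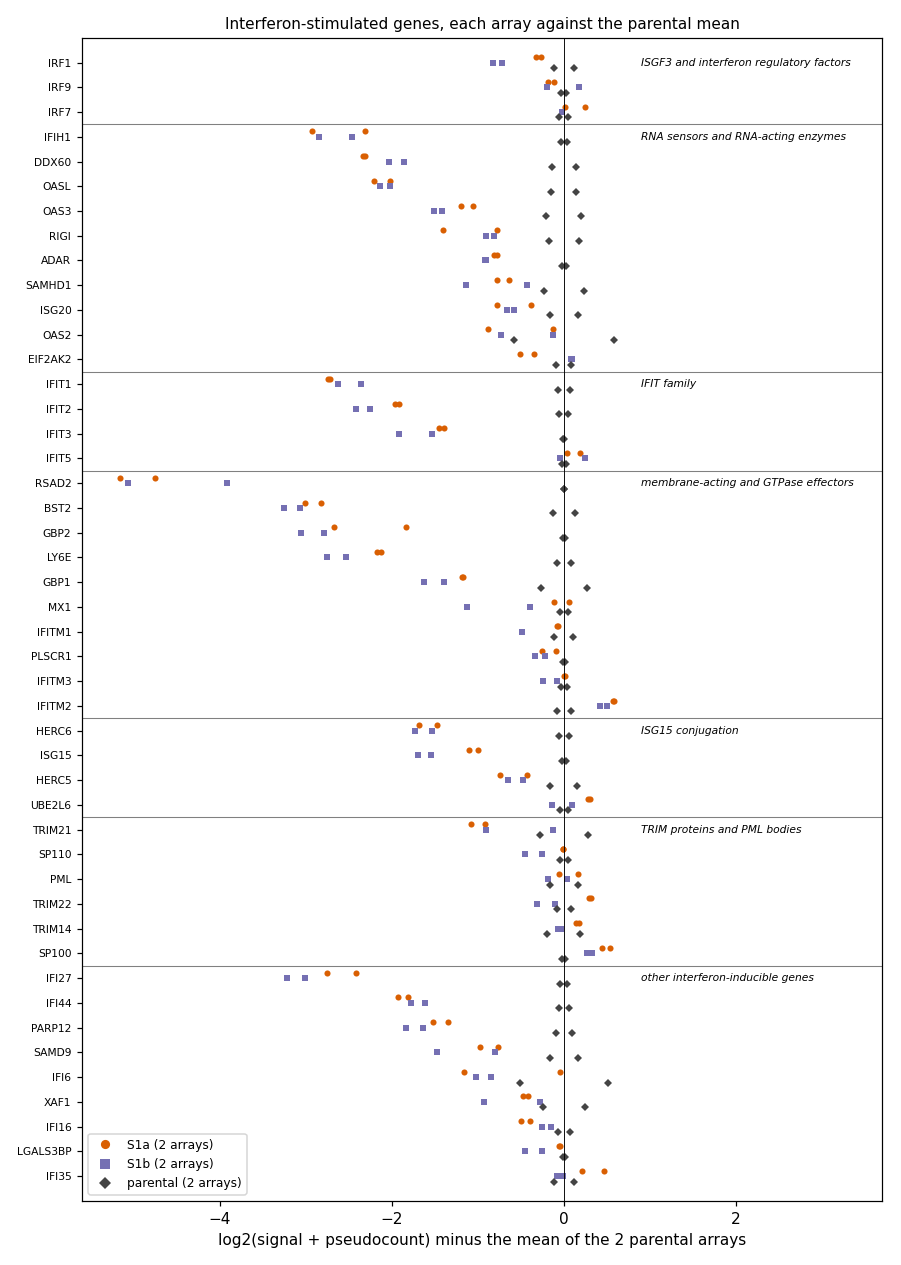
Log2 signal minus the mean of the 2 parental arrays (x axis) of the 46 tested genes (rows, by role), with a point for each S1a, S1b and parental array. The isolate points of RSAD2, BST2, IFI27, GBP2, IFIH1 and IFIT1 lie far to the left of their parental points, and the isolate points of IFITM2 and SP100 lie right of all parental points.

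**Figure D2:**
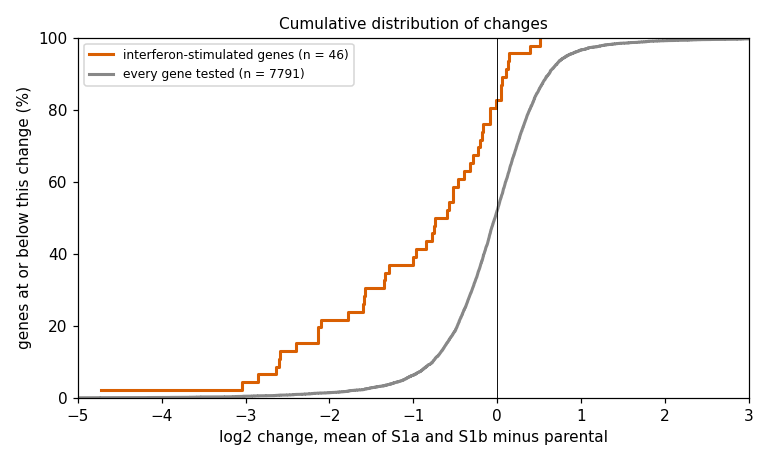
Cumulative share of genes (y axis, %) at or below a given log2 difference, mean of isolates minus parental (x axis), for the 46 interferon-stimulated genes and for all 7791 genes tested. The curve of the interferon-stimulated genes lies to the left, with a median of -0.67, and that of all genes has a median of -0.03.

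Among the transcription factors that run the response, IRF1 was lower and IRF7 and IRF9 did not pass. IRF1, which interferon gamma induces strongly and which activates ISRE promoters itself, had signals of 307 and 320 in S1a and 216 and 233 in S1b, against 355 and 418 in parental cells. Its log2 difference was -0.53 ± 0.13 in the mean of both isolates (SE, adjusted p = 0.00687), and its arrays did not overlap. The call was lost without parental replicate 2 (log2 -0.42) and after median centring (log2 -0.34, adjusted p = 0.0618). IRF7, the factor that amplifies interferon gene transcription, had signals of 260 and 306 in S1a and 254 and 254 in S1b, against 268 and 249 in parental cells. IRF9, the DNA-binding subunit of ISGF3, had 173 and 182 in S1a and 171 and 223 in S1b, against 201 and 193 in parental cells. The 95% intervals of their log2 differences were -0.25 to 0.35 for IRF7 and -0.45 to 0.29 for IRF9, so changes of 2-fold lie outside both. The sign for IRF9 turned with quantile, loess or median scaling.

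Sensors of viral RNA and enzymes that act on RNA fell in 8 of 10 tested genes (80%), with 23.5% of all genes tested. The median log2 difference of the 10 was -0.91. DDX60, a helicase that has been reported to aid RIG-I-like sensing, had signals of 97.1 and 95.3 in S1a and 135 and 119 in S1b, against 451 and 551 in parental cells, 4.4-fold lower (log2 -2.14 ± 0.17 SE, adjusted p = 7.03e-06). OASL, an OAS-like protein without synthetase activity that enhances RIG-I signalling, had 111 and 96.5 in S1a and 102 and 111 in S1b, against 511 and 417 in parental cells. This was a 4.27-fold fall (log2 -2.10 ± 0.17, adjusted p = 1.05e-05). In both genes all isolate arrays lay far below the parental arrays. Between the isolates, both S1b arrays of DDX60 lay above both S1a arrays without passing (log2 0.38, adjusted p = 0.395). The second probe set of OASL did so too, with 127 and 115 in S1b, against 71.3 and 84.2 in S1a (log2 0.62, adjusted p = 0.185).

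IFIH1, which encodes the long double-stranded RNA sensor MDA5, had signals of 34 and 53.9 in S1a and 36.2 and 48.3 in S1b, against 291 and 277 in parental cells. Its isolate mean lay under the 44 signal units used as the limit for dim probe sets, so the fall is given as at least 6.45-fold. Its adjusted p of 5.53e-05 comes from a gene that was tested only through its parental signals. RIGI, the sensor of RNA with a 5′ triphosphate, was 1.96-fold lower (log2 -0.97 ± 0.18, adjusted p = 0.00152), with 200 and 311 in S1a and 304 and 285 in S1b, against 606 and 474 in parental cells. The groups of both sensors did not overlap. ADAR, which edits adenosines in double-stranded RNA to inosines, had 1116 and 1141 in S1a and 1045 and 1036 in S1b, against 1925 and 1992 in parental cells, 1.8-fold lower (adjusted p = 1.39e-05).

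The OAS family, whose products make 2-5A to activate RNase L, could be followed in part. OAS3 had signals of 122 and 111 in S1a and 94.3 and 88.4 in S1b, against 224 and 298 in parental cells, 2.45-fold lower (log2 -1.29 ± 0.20, adjusted p = 0.000451). OAS2 did not pass, with 27.6 and 49.2 in S1a and 31.2 and 49.5 in S1b, against 82.9 and 35 in parental cells. The parental arrays of OAS2 differed widely, and the 95% interval of its log2 difference, -1.51 to 0.58, leaves room for a fall as large as that of OAS3. OAS1 was too dim to be tested, with 29 and 38.2 in S1a and 9.36 and 4.19 in S1b, against 53.8 and 74.5 in parental cells. This gives a bound of at least 1.46-fold lower. In the fit without a filter on dim genes, OAS1 passed as lower (log2 -1.77, adjusted p = 0.0243 over 11963 genes). There it passed in S1b (adjusted p = 0.00772) and not in S1a (adjusted p = 0.333). Its other probe set, also too dim, had overlapping groups.

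The nucleases SAMHD1, which depletes dNTPs, and ISG20, an RNA exonuclease, both fell on their brightest probe sets. The log2 differences were -0.75 ± 0.21 (adjusted p = 0.0156) for SAMHD1 and -0.60 ± 0.19 (adjusted p = 0.0238) for ISG20. The other probe set of ISG20 did not pass (log2 -0.79, adjusted p = 0.224, over 11860 probe sets). It had 107 and 146 in S1a and 67.2 and 11.7 in S1b, against 113 and 107 in parental cells. With the mean of its probe sets ISG20 did not pass (adjusted p = 0.0905). SAMHD1 lost the call without parental replicate 2 (adjusted p = 0.116). ISG20 lost it without parental replicate 2, S1a replicate 2 or S1b replicate 2, with adjusted p-values of 0.15, 0.072 and 0.0602. EIF2AK2, which encodes the translation-blocking kinase PKR, did not pass in the mean of both isolates (log2 -0.17, 95% interval -0.38 to 0.04, and 0.021 after median centring), and it is taken up again with the comparison of the isolates.

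The IFIT proteins bind foreign RNA and block its translation, and their 4 human members here lie in a cluster on chromosome 10. Of these, 3 fell (75%, with 23.5% of all genes tested) and the neighbouring IFIT5 did not pass. IFIT1, which binds RNA lacking cap methylation, had signals of 278 and 273 in S1a and 358 and 297 in S1b, against 1753 and 1944 in parental cells, 6.09-fold lower (log2 -2.61 ± 0.11, adjusted p = 1.46e-07). IFIT2 had 137 and 133 in S1a and 95.6 and 108 in S1b, against 548 and 510 in parental cells, 4.39-fold lower (adjusted p = 4.15e-06). IFIT3, which binds IFIT1 and stabilises it, had 618 and 596 in S1a and 429 and 563 in S1b, against 1638 and 1626 in parental cells, 2.97-fold lower (adjusted p = 4.15e-06). In all 3 genes every isolate array lay far below both parental arrays.

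IFIT5 had signals of 746 and 669 in S1a and 637 and 775 in S1b, against 665 and 645 in parental cells. Its log2 difference was 0.10 with a 95% interval of -0.13 to 0.34, which leaves out falls of the size seen in IFIT1, IFIT2 and IFIT3. The second probe set of IFIT5 differed by 0.38 on the log2 scale and did not pass either (adjusted p = 0.109, over 11860 probe sets). The IFIT5 window holds 3 ISRE cores and that of IFIT1 holds 2, so the presence of the core did not separate these neighbours.

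**Figure D3:**
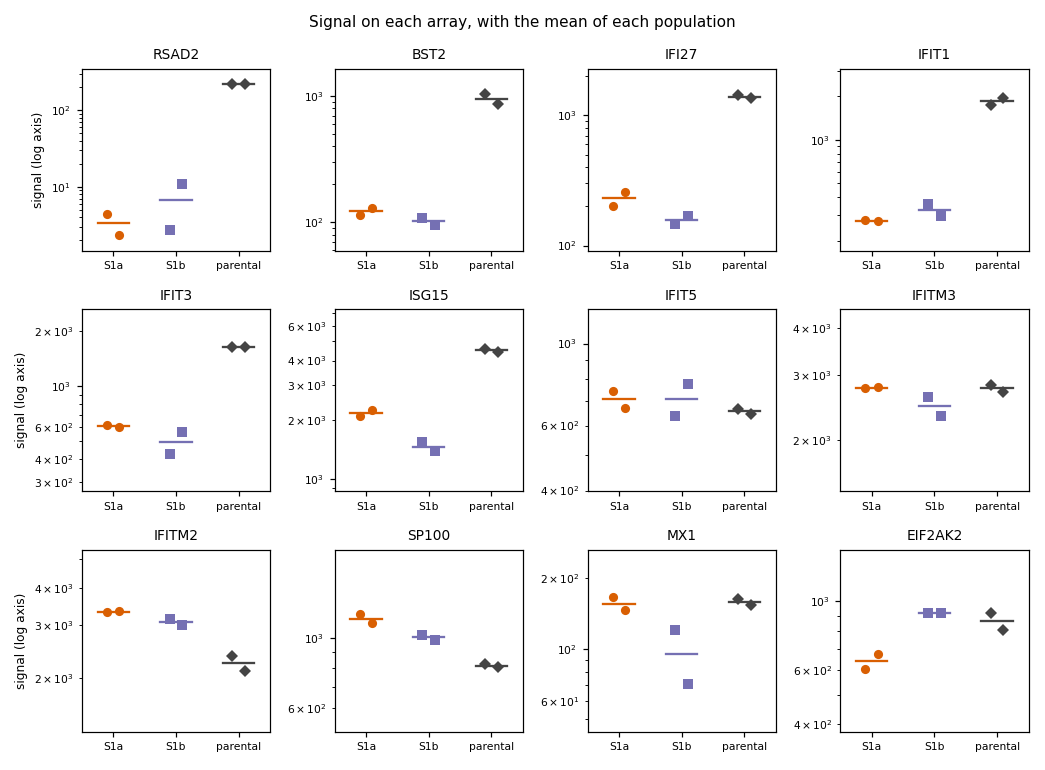
Signal on each array (log axes, 1 panel per gene, each with its own range) in S1a, S1b and parental cells, with a bar for the mean of each population. In RSAD2, BST2, IFI27, IFIT1, IFIT3 and ISG15 all 4 isolate points lie below both parental points, in IFITM2 and SP100 they lie above, and in IFIT5, IFITM3, MX1 and EIF2AK2 they overlap with them.

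Membrane-acting effectors and interferon-inducible GTPases fell in 7 of 10 tested genes (70%) and rose in 1 (10%). Of all genes tested, 23.5% fell and 22.7% rose. BST2, or tetherin, which holds budding virus at the cell surface, had signals of 114 and 130 in S1a and 109 and 95.2 in S1b, against 1031 and 862 in parental cells. It was 8.21-fold lower (log2 -3.04 ± 0.15, adjusted p = 3.86e-07). RSAD2, or viperin, which makes a chain-terminating nucleotide, had 4.38 and 2.33 in S1a and 2.75 and 10.9 in S1b, against 221 and 220 in parental cells. All 4 of these isolate signals lay under the limit of 44, so the fall is given as at least 5.01-fold. Its adjusted p of 0.000204 has the same limit as that of IFIH1.

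LY6E, a lipid-anchored surface protein that restricts coronavirus entry, had signals of 140 and 136 in S1a and 89.4 and 105 in S1b, against 590 and 665 in parental cells, 5.27-fold lower (adjusted p = 2.07e-06). The guanylate-binding proteins GBP1 and GBP2 attack vacuoles that hold pathogens and are induced above all by interferon gamma. GBP1 had 434 and 430 in S1a and 316 and 372 in S1b, against 1186 and 816 in parental cells, 2.54-fold lower (adjusted p = 6.27e-05). GBP2 had 85.4 and 46.1 in S1a and 34.4 and 42.1 in S1b, against 318 and 311 in parental cells, 6-fold lower (adjusted p = 6.33e-05). Both S1b signals of GBP2 lay under the limit of 44. None of these 3 genes had overlapping groups.

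The IFITM proteins, which stop virus fusion at cell membranes and are encoded side by side on chromosome 11, did not move as one. IFITM2 rose, with signals of 3306 and 3350 in S1a and 3150 and 2990 in S1b, against 2360 and 2111 in parental cells, 1.43-fold higher (log2 0.52 ± 0.08, adjusted p = 0.000366). IFITM1 had 824 and 828 in S1a and 618 and 620 in S1b, against 940 and 807 in parental cells. It fell (log2 -0.28 ± 0.09, adjusted p = 0.0296), with groups that overlapped. This call was lost without parental replicate 1 and without any one isolate array, with adjusted p-values of 0.215 without parental replicate 1 and between 0.0597 and 0.0738 without an isolate array.

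IFITM3 had signals of 2755 and 2774 in S1a and 2615 and 2325 in S1b, against 2820 and 2699 in parental cells, and did not pass (95% interval of the log2 difference -0.25 to 0.09, with a difference of 0.11 after median centring). The 3 genes are near-identical in sequence, and the probe set of IFITM2 has the suffix for probes that may match other transcripts, so their signals can be mixed. A further probe set annotated to both IFITM1 and IFITM2 had 703 and 701 in S1a and 579 and 479 in S1b, against 870 and 916 in parental cells, the opposite direction to that of IFITM2 alone. The rise of IFITM2 is therefore uncertain as to the gene.

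PLSCR1, a phospholipid scramblase that limits virus entry, fell slightly (log2 -0.23 ± 0.08, adjusted p = 0.0479), a call that was lost without any one of the 6 arrays (adjusted p 0.0526 to 0.156). MX1, a GTPase that traps viral nucleocapsids, had signals of 166 and 146 in S1a and 120 and 70.7 in S1b, against 164 and 154 in parental cells. It did not pass in the mean of both isolates (95% interval of the log2 difference -0.92 to 0.12) and was lower in S1b alone (log2 -0.76, adjusted p = 0.0443). MX2 was too dim to be tested, with 32.5 and 50.9 in S1a and 11.9 and 13.7 in S1b, against 49.1 and 36 in parental cells.

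ISG15, a ubiquitin-like protein that is joined to new proteins in infected cells, fell together with 2 HERC genes. ISG15 had signals of 2096 and 2247 in S1a and 1538 and 1386 in S1b, against 4565 and 4435 in parental cells, 2.52-fold lower (log2 -1.34 ± 0.08, adjusted p = 9.37e-07). HERC5, the main human ISG15 ligase, had 656 and 526 in S1a and 562 and 631 in S1b, against 791 and 983 in parental cells, 1.49-fold lower (adjusted p = 0.00413). HERC6, its neighbour on chromosome 4, had 143 and 123 in S1a and 119 and 137 in S1b, against 387 and 422 in parental cells, 3.04-fold lower (adjusted p = 3.61e-05).

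The conjugating enzyme of ISG15 did not pass. UBE2L6 had signals of 853 and 865 in S1a and 748 and 640 in S1b, against 726 and 681 in parental cells, with a 95% interval of the log2 difference of -0.08 to 0.34. USP18, which removes ISG15 from proteins and also damps the IFNAR2 receptor, was under the limit for testing, with 10.5 and 7.39 in S1a and 7.78 and 7.03 in S1b, against 67.7 and 72.9 in parental cells. The USP18 signals of the isolates were all below 44 and those of parental cells above it. This gives a bound of at least 1.6-fold lower. In the fit without a filter on dim genes, USP18 passed (adjusted p = 0.00317 over 11963 genes).

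TRIM and PML body genes, which restrict viruses in the nucleus and cytoplasm, showed no common shift. Of 6 tested, 1 fell (16.7%), 1 rose (16.7%) and 4 did not pass, with a median log2 difference of 0.02. These shares lie under the 23.5% lower and 22.7% higher of all genes tested. SP100, a scaffold of PML bodies, had signals of 1186 and 1113 in S1a and 1023 and 983 in S1b, against 826 and 807 in parental cells, 1.31-fold higher (log2 0.39 ± 0.08, adjusted p = 0.00275). Another SP100 probe set was higher too (log2 0.52, adjusted p = 0.0218), a further one did not pass (log2 0.29, adjusted p = 0.0638), and a pair of dim ones differed in the other direction. With the mean of its probe sets SP100 did not pass (log2 0.13, adjusted p = 0.51).

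TRIM21, a cytosolic receptor for antibody-coated virus, had signals of 76.7 and 86.4 in S1a and 87 and 152 in S1b, against 203 and 137 in parental cells. It fell (log2 -0.76 ± 0.27, adjusted p = 0.0424), with overlapping groups. The call was lost without parental replicate 1, either S1a array or S1b replicate 1 (adjusted p 0.26, 0.0815, 0.0577 and 0.112). The 95% intervals of the log2 differences were -0.43 to 0.41 for PML, -0.50 to 0.14 for SP110, -0.20 to 0.30 for TRIM14 and -0.45 to 0.54 for TRIM22. PML has 8 probe sets, and those tested ranged between -1.16 and 0.84 on the log2 scale, so its transcripts may not share 1 value.

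Of the 9 other interferon-inducible genes tested, 5 fell (55.6%, with 23.5% of all genes tested) and 4 did not pass. The median log2 difference of the 9 was -0.77. IFI27, a mitochondrial protein widely used as a blood marker of interferon exposure, had signals of 203 and 258 in S1a and 146 and 169 in S1b, against 1429 and 1352 in parental cells, 7.2-fold lower (log2 -2.85 ± 0.13, adjusted p = 2.85e-07). IFI44, an interferon-induced cytoplasmic protein, had 191 and 175 in S1a and 195 and 218 in S1b, against 653 and 704 in parental cells, 3.45-fold lower (adjusted p = 4.15e-06). PARP12, a mono-ADP-ribosyltransferase, had 324 and 364 in S1a and 299 and 259 in S1b, against 875 and 999 in parental cells, 3-fold lower (adjusted p = 5.57e-06). These 3 genes had no overlap between the groups.

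SAMD9, a restriction factor of poxviruses, had signals of 108 and 125 in S1a and 122 and 75.1 in S1b, against 243 and 192 in parental cells, 2.01-fold lower (adjusted p = 0.00581). IFI16, a sensor of nuclear DNA, fell (log2 -0.32 ± 0.08, adjusted p = 0.0085). The call was lost without parental replicate 1 (log2 -0.26) and after median centring (log2 -0.13, adjusted p = 0.257). The other IFI16 probe sets gave -0.61 (adjusted p = 0.00288) and -0.18 (adjusted p = 0.244). IFI6, XAF1, LGALS3BP and IFI35 did not pass, with 95% intervals of the log2 difference of -1.66 to 0.12, -1.14 to 0.09, -0.38 to -0.03 and -0.13 to 0.42. XAF1 and LGALS3BP lay below parental on every isolate array. IFI6 passed as lower without parental replicate 2 (log2 -1.28, adjusted p = 0.0356), and LGALS3BP without S1b replicate 2 (log2 -0.25, adjusted p = 0.0271), with quantile normalization (log2 -0.27, adjusted p = 0.0116), with cyclic loess (log2 -0.23, adjusted p = 0.031) and with a filter at the 60th percentile (adjusted p = 0.0415). IFI44L was too dim to be tested, with 2.54 and 2.51 in S1a and 27.1 and 8.18 in S1b, against 16.2 and 4.42 in parental cells.

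Set by size of the fall, the ISRE core was found in 13 of the 14 genes with a window that fell at least 2-fold (92.9%). It was found in 5 of the 10 that fell by less (50%) and in 7 of the 12 that did not pass (58.3%). HERC6 was the gene that fell at least 2-fold with no core in its windows. The GAS core was found in 6 of the 24 genes that fell (25%) and 4 of the 12 that did not pass (33.3%). IFI6, with 3 ISRE cores, and IFITM3, with 2, did not pass. These shares are descriptions, and no test was made of them.

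Members with several probe sets allowed a check within a gene. Of the 50 genes, 15 had more than 1, and 66 of the 79 probe sets were bright enough to be tested. OASL fell on both probe sets (log2 -2.10 and -2.18) and GBP1 on both (log2 -1.34 and -1.24). In this fit over 11860 probe sets, 42.6% of which passed against parental, the main probe set of PLSCR1 had an adjusted p of 0.0551. For PML, TRIM14 and SP100 the probe sets differed in sign. Those of ISG20 shared a sign, but the dimmer one did not pass (log2 -0.79, adjusted p = 0.224).

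**Figure D4:**
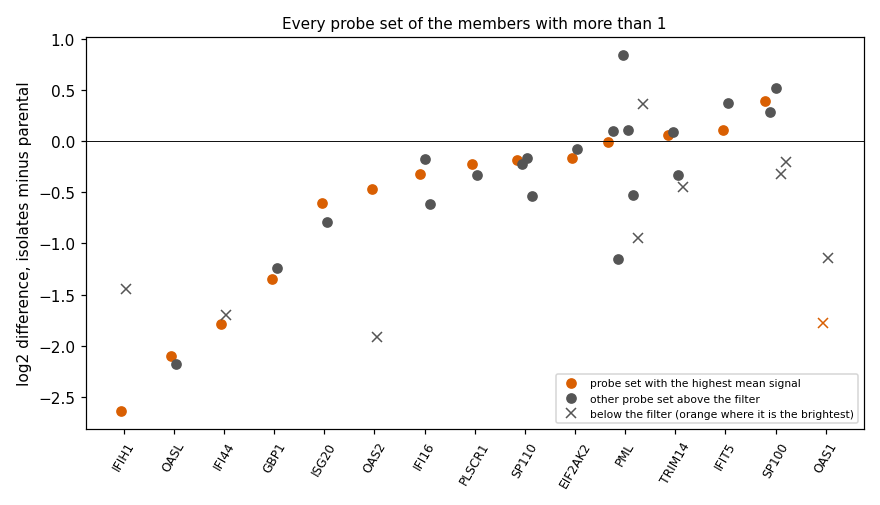
Log2 difference, mean of isolates minus parental (y axis), of each probe set of the 15 genes that have several, with the brightest in orange and those too dim to test as crosses. The points of OASL and of GBP1 lie together below 0, and those of PML spread to both sides of it.

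Each isolate was also set against parental cells on its own. In S1a, 25 of the 46 genes were lower, 2 were higher and 19 did not pass, with a median log2 difference of -0.60, where 39.2% of all genes tested passed, 19.9% lower and 19.4% higher. In S1b, 28 were lower, 2 higher and 16 did not pass, with a median of -0.77, where 41.6% of all genes tested passed, 20.9% lower and 20.7% higher. Both comparisons use the same parental arrays, so their overlap is not independent. Of the 46 tested genes, 22 were called lower in both. Over all genes tested, no more than the 19.9% called lower in S1a can be lower in both. EIF2AK2, TRIM21 and IFI16 were called lower in S1a alone, and IRF1, ISG20, IFITM1, MX1, PLSCR1 and LGALS3BP in S1b alone.

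A call in 1 isolate alone does not show that the isolates differ, and the direct test found few differences. In S1b against S1a, 1 gene was higher, 1 was lower and 44 did not pass, where 1.89% of all genes tested passed, 0.462% higher and 1.42% lower. The median log2 difference, S1b minus S1a, was -0.16, with 34 of the 46 genes below 0. Over all genes tested that median was 0.01. Both S1b arrays lay below both S1a arrays in 24 genes and above both in 6, where 23.9% and 25.7% of all genes tested did so.

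ISG15 was the gene that was lower in S1b than in S1a, by 0.57 ± 0.09 on the log2 scale (SE, 95% interval -0.77 to -0.37, adjusted p = 0.0132). Against parental cells it fell by 1.62 ± 0.09 in S1b and by 1.05 ± 0.09 in S1a. Its signals above show 3 separate levels, with S1b lowest and parental cells highest. The difference between the isolates was lost without S1a replicate 1, S1a replicate 2 or S1b replicate 2 (adjusted p 0.0704, 0.158 and 0.119).

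EIF2AK2 was the gene that was higher in S1b than in S1a. Its signals were 919 and 916 in S1b, against 606 and 674 in S1a and 916 and 811 in parental cells, a log2 difference of 0.52 ± 0.11 between the isolates (adjusted p = 0.0455). It fell in S1a against parental cells (log2 -0.43 ± 0.11, adjusted p = 0.0104) and did not pass in S1b (log2 0.09, adjusted p = 0.536). Its other probe set had 516 and 523 in S1b, against 517 and 493 in S1a and 557 and 526 in parental cells, and showed no such difference (log2 0.04, adjusted p = 0.921). The call was also lost without any one of the 4 isolate arrays (adjusted p 0.158 to 0.319).

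Other genes of the pathway were followed in the same fits. The 7 interferon genes with a probe set, among them IFNB1 and IFNG, were all below the limit for testing, with signals between 0.451 and 35.7 over the 6 arrays. Receptors and kinases were lower in 6 of 8 tested genes (75%), where 23.5% of all genes tested were lower. IFNGR2, a chain of the interferon gamma receptor, had signals of 619 and 567 in S1a and 509 and 486 in S1b, against 1294 and 1218 in parental cells (log2 -1.20 ± 0.09, adjusted p = 5.79e-06). IFNAR2, a chain of the type I receptor, had 228 and 204 in S1a and 193 and 190 in S1b, against 339 and 322 in parental cells (log2 -0.69 ± 0.14, adjusted p = 0.00224). JAK1 had 959 and 992 in S1a and 1022 and 960 in S1b, against 1278 and 1334 in parental cells (log2 -0.41 ± 0.08, adjusted p = 0.00203). IFNAR1 fell too (log2 -0.85, adjusted p = 0.0228), and IFNGR1 did not pass (log2 -0.02, adjusted p = 0.866).

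Of 13 tested genes that sense nucleic acid or induce interferon, 5 fell (38.5%) and 2 rose (15.4%). Of all genes tested, 23.5% and 22.7% did so. Against parental, S1a alone had 3 lower (23.1%) and 1 higher (7.69%), where 19.9% and 19.4% of all genes tested were. TANK, a scaffold of the kinases that activate IRF3, fell (log2 -0.68, adjusted p = 0.000495), as did the Toll-like receptor adaptor MYD88 (log2 -0.51, adjusted p = 0.000927) and IRF3 (log2 -0.47, adjusted p = 0.00269). Of 8 negative regulators, 1 fell (12.5%) and 2 rose (25%), where 23.5% and 22.7% of all genes tested did so, shares that do not set them apart. The phosphatases PTPN11, with a log2 difference of 0.56 ± 0.07 (adjusted p = 0.000133), and PTPN2, with 0.51 (adjusted p = 0.00165), rose. SOCS1, an inhibitor that interferon itself induces, had signals of 38 and 38.5 in S1a and 31 and 39.4 in S1b, against 129 and 97.8 in parental cells, at least 2.58-fold lower. It too was tested only through its parental signals (adjusted p = 0.00419).

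Further interferon targets outside the 51 genes fell in 5 of 10 tested (50%), and 1 rose (10%). Of all genes tested, 23.5% and 22.7% did so. The antiviral zinc finger gene ZC3HAV1 (log2 -0.89, adjusted p = 4.44e-05), BLVRA (log2 -0.96, adjusted p = 0.000115) and N4BP1 (log2 -0.59, adjusted p = 0.00392) fell. APOBEC3G, a cytidine deaminase that restricts retroviruses, rose by 0.85 in the mean of both isolates, but with 118 and 158 in S1b, against 328 and 295 in S1a and 101 and 126 in parental cells. S1b was lower than S1a in this gene (log2 -1.17, adjusted p = 0.0321). Of 4 tested targets known above all from interferon gamma, the adhesion molecule ICAM1 (log2 -2.29 ± 0.49, adjusted p = 0.00372) and SOCS1 fell, and the tryptophanyl-tRNA synthetase WARS1 rose (log2 0.36, adjusted p = 0.00413). These shares were 50% lower and 25% higher, where 23.5% and 22.7% of all genes tested were. SOCS1 was also counted above among the negative regulators. ICAM1 had signals of 103 and 77.2 in S1a and 3.26 and 23.2 in S1b, against 192 and 154 in parental cells. Both S1b signals of ICAM1 lay under the limit of 44, so its differences in S1b rest on dim values. ICAM1 was lower than parental in S1b (adjusted p = 0.000645) and did not pass in S1a (log2 -0.92, adjusted p = 0.224), and S1b was lower than S1a (adjusted p = 0.0459). WARS1 was higher than parental in S1a (log2 0.55, adjusted p = 0.00119) and did not pass in S1b (log2 0.18, adjusted p = 0.152). Over the 42 tested pathway genes that are not among the 51, 18 fell (42.9%), 6 rose (14.3%) and 18 did not pass, with a median log2 difference of -0.31, where 23.5% of all genes tested fell and 22.7% rose. Against parental, 12 of the 42 fell in S1a (28.6%, with 19.9% of all genes tested) and 17 in S1b (40.5%, with 20.9%).

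**Figure D5:**
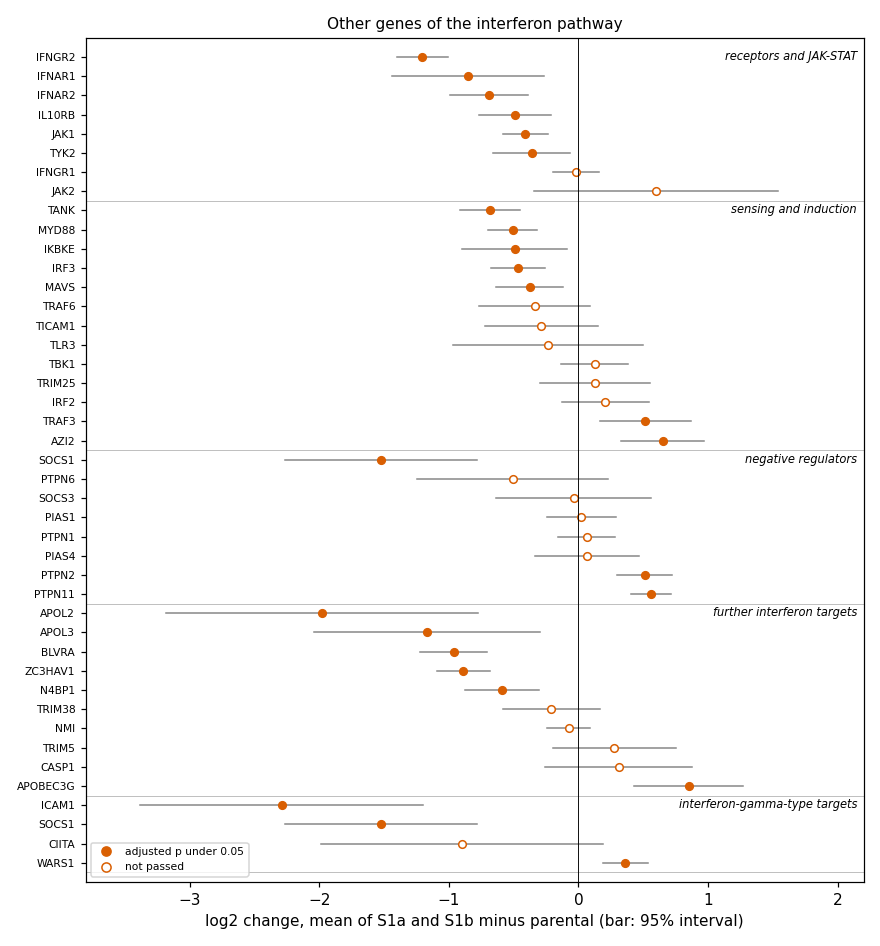
Log2 difference, mean of isolates minus parental (x axis), of tested pathway genes outside the 51 members (rows, by list), with 95% intervals and filled points for adjusted p under 0.05. SOCS1 stands in both lists that hold it. IFNGR2 and ICAM1 lie left of 0, and PTPN11 and APOBEC3G lie right of it.

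A published 7-gene signature of interferon-related resistance to DNA damage shares members with this list. Of its genes, 5 were tested here: IFIT1, IFIT3, IFI44 and ISG15 fell (80%, with 23.5% of all genes tested), and MX1 did not pass. These 5 are among the 46 genes counted above and add no separate result. Genes that lie next to the 28 fallen members on their chromosomes, with those of the interferon lists left out, gave 48 tested neighbours. Of these, 13 fell (27.1%), 10 rose and 25 did not pass, with a median log2 difference of -0.11, where 23.5% of all genes tested fell.

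Markers of the labelled cells were present on every array. The 7 genes VIM, CD44, AXL, CAV1, MSN, KRT18 and EGFR, which are high in MDA-MB-231 cells, each had a signal of at least 1856, and they summed to 59307 to 65036 signal units on isolate arrays and 67210 to 74567 on parental arrays. The 3 genes known to be low in triple-negative cells, ESR1, PGR and ERBB2, summed to 184 to 243 on isolate arrays and 282 to 308 on parental arrays. Leukocyte markers, with 6 of 7 measured, summed to 73.5 to 170 on isolate arrays and 181 to 221 on parental arrays, and 4 of the 6 lay under 44 on every array. Median signals of all probe sets were 87.6 to 91.7 on isolate arrays and 98.6 to 106 on parental arrays, and the ratio of 3′ to 5′ GAPDH signal was 0.976 to 0.998 on isolate arrays and 1.06 to 1.09 on parental arrays. The same ratio for ACTB was 1.34 to 1.46 on isolate arrays and 1.28 and 1.55 on parental arrays, with no separation. The part of these differences in the falls of the interferon-stimulated genes was not tested. Centring each array on its median moved the median of all genes to 0.16, and that of the 46 genes to -0.48, with 22 lower and 4 higher.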

How the data were processed

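The authors deposited 1 intensity per probe set and array on a linear scale. Per the submitters' processing notes the tool was MAS5, whose version is not given in the sources used here. Every deposited array had the same trimmed mean, 500.2, with 2% trimmed at each end. Detection calls and scanner files were not used here. Of 22277 probe sets, 62 were controls. A probe annotation table gave 1 symbol to 19064 probe sets, several to 1043 and none to 2108, and symbols were updated through RefSeq gene identifiers for 19052.

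Where a gene had several probe sets, the brightest on average was used. Values were log2(intensity + 3.942), where the pseudocount is the 10th percentile of all signals, so folds of dim genes are understated. The tests covered the 7791 genes whose mean reached 44 units, the 40th percentile of probe sets. A fall to a mean under 44 is printed as a bound, the parental mean divided by 44. One model with 3 group means was fitted with limma 3.58.1 in R 4.3.3 (variance trend, 3 residual and 7 prior degrees of freedom), with Benjamini-Hochberg adjustment over all genes in each comparison and a threshold of 0.05. The procedure was tested on simulated data. The number of arrays limits the precision. No column of another sample was used.

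The members and gene lists were chosen with earlier results of these data known. Full values are given for up to 4 members of each role with the smallest p against parental, for all that rose, for those that differed between the isolates, and for others of interest chosen after their values were seen. Up to 3 genes of each pathway list were named by the same rule, and a few more after their values were seen. Same-numbered replicates did not deviate together (correlations -0.0583 for S1a with S1b, -0.0046 for S1a with parental and -0.0674 for S1b with parental), so the numbers were not taken as pairs.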

Additional observations from a re-analysis of the deposited data

Results flagged for a closer look

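The 2 interferon-stimulated genes that differed between the isolates in the direct test are given here for a closer look. EIF2AK2 had a log2 difference, S1b minus S1a, of 0.52 on its main probe set (adjusted p = 0.0455), and its other probe set did not show it. ISG15 had a log2 difference, S1b minus S1a, of -0.57 (adjusted p = 0.0132), with both isolates below parental cells. With 2 arrays per population, no array could be tested as an outlier.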

How the results depend on the processing

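In 18 alternative settings, 21 of the 28 lower calls and 1 of the 2 higher calls (IFITM2) of the mean of both isolates held wherever a value could be computed, and no called gene changed sign. IRF1, SAMHD1, ISG20, IFITM1, PLSCR1, TRIM21, IFI16 and SP100 lost the call in at least 1 setting. LGALS3BP and IFI6 (lower) and UBE2L6 and IFI35 (higher, with median centring) gained one. PLSCR1 and TRIM21 lost the call in 11 of 17 settings, ISG20 in 8 of 17 and IFITM1 in 7 of 17. With median centring IRF1, ISG20, IFITM1, PLSCR1, TRIM21 and IFI16 lost it (limma adjusted p 0.0618, 0.104, 0.48, 0.789, 0.0802 and 0.257). ISG20 and TRIM21 also lost it with quantile normalization and with cyclic loess. The count of lower genes ranged from 19, among 29 genes left without probe sets of shared-probe suffixes, to 28. The median log2 difference was -0.57 with quantile normalization, -0.48 with median centring and -0.56 with cyclic loess, and -0.76 to -0.57 without single arrays. Higher genes were 4 with median centring, 1 with the mean of probe sets and 1 without shared-probe suffixes, in S1a as in the mean of both isolates. Without those suffixes 2062, 1731 and 1895 genes were called for the mean of both isolates, S1a and S1b, among 4781 genes tested. For S1a the median was -0.41 with centring, -0.87 without the suffixes and -0.77 to -0.57 without single arrays, with 1902 to 2914 genes called. For S1b it was -0.63 with quantile normalization, -0.57 with centring, -0.65 with loess and -0.94 without the suffixes. Higher genes in S1b were 1 with the mean of probe sets, without the suffixes or without the variance trend, and 1 to 2 without single arrays.

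For S1b against S1a, limma called 147 genes, but 63 without the filter, 60 with the mean of probe sets, 58 without the suffixes, 320 with array weights, 4 without the variance trend, 64 with the replicate block and 22 to 348 without single arrays. Higher genes among the 46 were 0 without the filter, with the mean of probe sets, without the suffixes, without the trend and with the replicate block, and 0 to 1 without single arrays. Lower genes were 0 without the suffixes or the trend, 2 with array weights and 0 to 2 without single arrays. At an unadjusted limma p under 0.05, 2 were higher and 11 lower in the reported fit. In the alternatives that kept all arrays, 1 to 3 were higher and 8 to 15 lower. The share of all genes tested at that threshold is not given here, so these counts are not read as a lean. With the replicate block, 26 genes were lower than parental, and PLSCR1 (adjusted p = 0.0733), TRIM21 (0.0595) and EIF2AK2 between the isolates (0.0933) lost their calls.

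Reversed signs were found only in genes that had not passed. IRF9 had 0.038, 0.11 and 0.034 with quantile, centring and loess, and PML 0.13, 0.18 and 0.13. With centring EIF2AK2 had 0.021, IFITM3 0.11 and SP110 0.0081, and TRIM14 had -0.16 with the mean of probe sets. Without single arrays the ranges were -0.17 to 0.012 for IRF9, -0.17 to 0.15 for PML, -0.14 to 0.25 for TRIM14, -0.031 to 0.12 for TRIM22 and -0.0079 to 0.11 for IRF7. The causes were not tested.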
